A study of Drosophila melanogaster with 8 samples.

Results

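Mitochondrial ribosomal protein genes are nuclear genes whose products are imported into mitochondria, where they build the ribosome that translates the few messages of the mitochondrial genome. That ribosome has a large subunit, which forms peptide bonds, and a small subunit, which reads the message, and its products are core subunits of the respiratory chain. Many of its proteins have counterparts in bacterial ribosomes, whereas others are found in mitochondria only. The genes were taken from the platform annotation, as those with a probe set annotated to a single symbol that starts with mRpL or mRpS and a digit. A gene with several probe sets in a table was read through the one with the highest mean. The rule gave 69 genes of 12070 with a single symbol, 44 of the large and 25 of the small subunit by their symbols, and 64 of them were on both array types. By the numbering, 40 of the 69 were counted as having bacterial counterparts and 29 as not. Counted as having them were numbers up to 36 in the large and 21 in the small subunit. This was not checked protein by protein, so single genes may be counted wrongly. In mammalian ribosome structures the proteins of the mRpS30 and mRpS18A genes lie in the large subunit, but the symbols were kept as the basis here. The genes tko and bonsai, which encode mitochondrial ribosomal proteins too, fall outside the rule by their symbols. mRpS10 on both types and mRpL53 on the newer type fall outside it because their probe sets are annotated to several genes.

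The cells were S2, a cell line from embryos of Drosophila melanogaster, and carried CLKGR, in which the circadian activator CLK is fused to the steroid-binding part of a glucocorticoid receptor. Dexamethasone is the ligand of that receptor. Total RNA was read on 8 Affymetrix arrays, 2 per group and array type. On the older type the groups were dexamethasone with cycloheximide (DEX) and ethanol with cycloheximide (EtOH), and on the newer type DEX and a group labelled V with cycloheximide, where V is not spelled out. Cycloheximide, which blocks translation on cytosolic ribosomes and not on those of mitochondria, was thus present in every group, and no group without it was analysed here. The label of 1 EtOH sample states stable transfection with CLKGR. For DEX replicate 2 of the newer type, the title and the source label carry different replicate numbers. Whether the 2 arrays of a group come from separate cultures is not stated, so the p-values rest on a spread that may be technical.

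Values are log2 of the deposited intensities, and a difference is the DEX mean minus the control mean on that scale. The deposited values had been taken off a log scale whose base is not given. If that base was e, each log2 difference shrinks to 0.693 of the value printed and its p-value stays the same. All 10 haemocyte markers on the older type and 10 of 11 on the newer had means of at least 4, the minimum for testing. Pxn was the brightest of them, at 13.85 and 15.74. The neuron, muscle, fat body and germline markers had means between 3.34 and 6.21 on either type. Of these, all 3 neuron and all 3 germline markers read also passed the minimum on both types. NimC1 and Ppn on the older type, at 4.52 and 5.10, and Ppn on the newer, at 3.95, lay within that range. The CLK target vri stood at 10.42 and 11.03 on the DEX arrays and at 6.56 and 6.81 on the EtOH arrays. On the newer type its probe set, an _s_at that may read more than 1 gene, stood at 10.60 and 10.34 on the arrays labelled DEX and at 12.41 and 12.66 on the arrays labelled V. All 4 targets checked (vri, cwo, Pdp1 and tim) were lower on the arrays labelled DEX there, with a median difference of -2.34, though 0 of the 4 passed. The treatment check thus runs against the labels on the newer type, and every direction given for that type rests on the labels.

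DEX changed no mitochondrial ribosomal protein gene past the threshold on the older array type. All 64 genes were above the minimum, with means from 4.39 (mRpL40) to 10.52 (mRpS7). limma called 0 of the 64 at an adjusted p under 0.05, against 0.263% of all 10250 probe sets tested. At an unadjusted p under 0.05 there were 7 of 64, or 10.9%, against 5.85% of all probe sets. The differences lay between -0.43 and 0.90 with a median of 0.058, and 41 of 64 were positive. Over all probe sets the median was -0.014 and 41.1% were positive, and over those with a mean of 6 to 12 the median was 0.047 and 58.4% were positive. The 95% interval of the difference, from limma, lay wholly between -1 and 1 for 59 of the 64 genes, with a median half-width of 0.43.

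Both DEX arrays lay above both EtOH arrays for 24 of the 64 genes, or 37.5%, and below them for 10, or 15.6%. The shares over all probe sets were 13% above and 13.6% below, and over those with a mean of 6 to 12 they were 23.6% and 14.1%. EtOH replicate 2 had the highest 3′ minus 5′ difference of the actin, GAPDH and eIF-4a control probe sets, a measure of RNA integrity. That of actin was 2.68 and 2.94 on the DEX arrays, 2.79 on EtOH replicate 1 and 3.44 on EtOH replicate 2. GAPDH gave 4.64 and 4.87 on the DEX arrays, 4.70 on EtOH replicate 1 and 5.55 on EtOH replicate 2. For eIF-4a it was 2.18 and 2.81 on the DEX arrays, 2.29 on EtOH replicate 1 and 3.01 on EtOH replicate 2. On this control DEX replicate 2 lay near EtOH replicate 2. Against EtOH replicate 1 alone both DEX arrays lay above for 34 of the 64 genes, or 53.1%, and below for 15, or 23.4%, close to the 50.1% and 20.4% of all probe sets. Against EtOH replicate 2 alone they lay above for 28, or 43.8%, and below for 19, or 29.7%, where the shares of all probe sets were 20.2% and 57.5%. The shares against a single EtOH array were not split by level. EtOH replicate 2 deviated from the probe set mean by a median of 0.061 over the 6152 probe sets at 4 to 6, where 13 of the 64 genes lay. At 6 to 8 and 8 to 10, with 24 and 22 of the genes, its median over all probe sets was -0.0016 and -0.029. Without EtOH replicate 2 the median difference of the family was 0.061 and 41 of 64 were positive. The part of RNA integrity in these counts was not tested. With both EtOH arrays, the 2 subunits were close in this, with 16 of 43 large subunit genes and 8 of 21 small subunit genes above. So were the genes with bacterial counterparts, 13 of 36, and those without, 11 of 28. The median difference was 0.048 in the large and 0.17 in the small subunit, a contrast that was not tested.

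The 4 genes with the smallest p on the older type all had higher DEX arrays, and none passed. mRpL24, for a protein that in bacteria starts the assembly of the large subunit, stood at 8.80 and 8.90 with DEX and at 8.28 and 8.20 with EtOH. The groups did not overlap, and the difference was 0.61 ± 0.17 (SE, n = 2 each, limma adjusted p = 0.517). mRpL1, whose bacterial counterpart forms the stalk where spent tRNA leaves the ribosome, stood at 6.96 and 6.63 with DEX and at 6.24 and 6.24 with EtOH. Its difference was 0.56 ± 0.16 (limma adjusted p = 0.562). mRpS30, without a bacterial counterpart, stood at 8.96 and 9.25 with DEX and at 8.47 and 8.54 with EtOH, a difference of 0.60 ± 0.19 (limma adjusted p = 0.669).

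mRpL39, which in mammals encodes a large subunit protein related to threonyl-tRNA synthetase, had the largest difference of the 64. It stood at 9.17 and 8.31 with DEX and at 7.74 and 7.94 with EtOH, a difference of 0.90 ± 0.31, or 1.87-fold as deposited (limma adjusted p = 0.716). The DEX arrays lay apart from each other by about as much as the groups did. The lowest difference was that of mRpL51, a large subunit gene without a bacterial counterpart, at 8.18 and 8.36 with DEX and at 8.73 and 8.67 with EtOH, or -0.43 ± 0.18 (limma adjusted p = 0.848). With DEX replicate 2 left out, limma called mRpL39, mRpL1, mRpL46 and mRpS6 higher with DEX (adjusted p between 3.6e-05 and 0.0476). In that fit it also called 455 of all probe sets, or 4.44%, with the lone DEX array assumed to vary like the EtOH pair. These calls hung on that array, since mRpL39 differed by 1.34 without DEX replicate 2 and by 0.47 without DEX replicate 1, mRpL1 by 0.72 and 0.39, mRpL46 by 0.78 and 0.055, and mRpS6 by 0.79 and 0.27. Without DEX replicate 1, none of the 4 passed (limma adjusted p between 0.666 and 1).

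**Figure D1:**
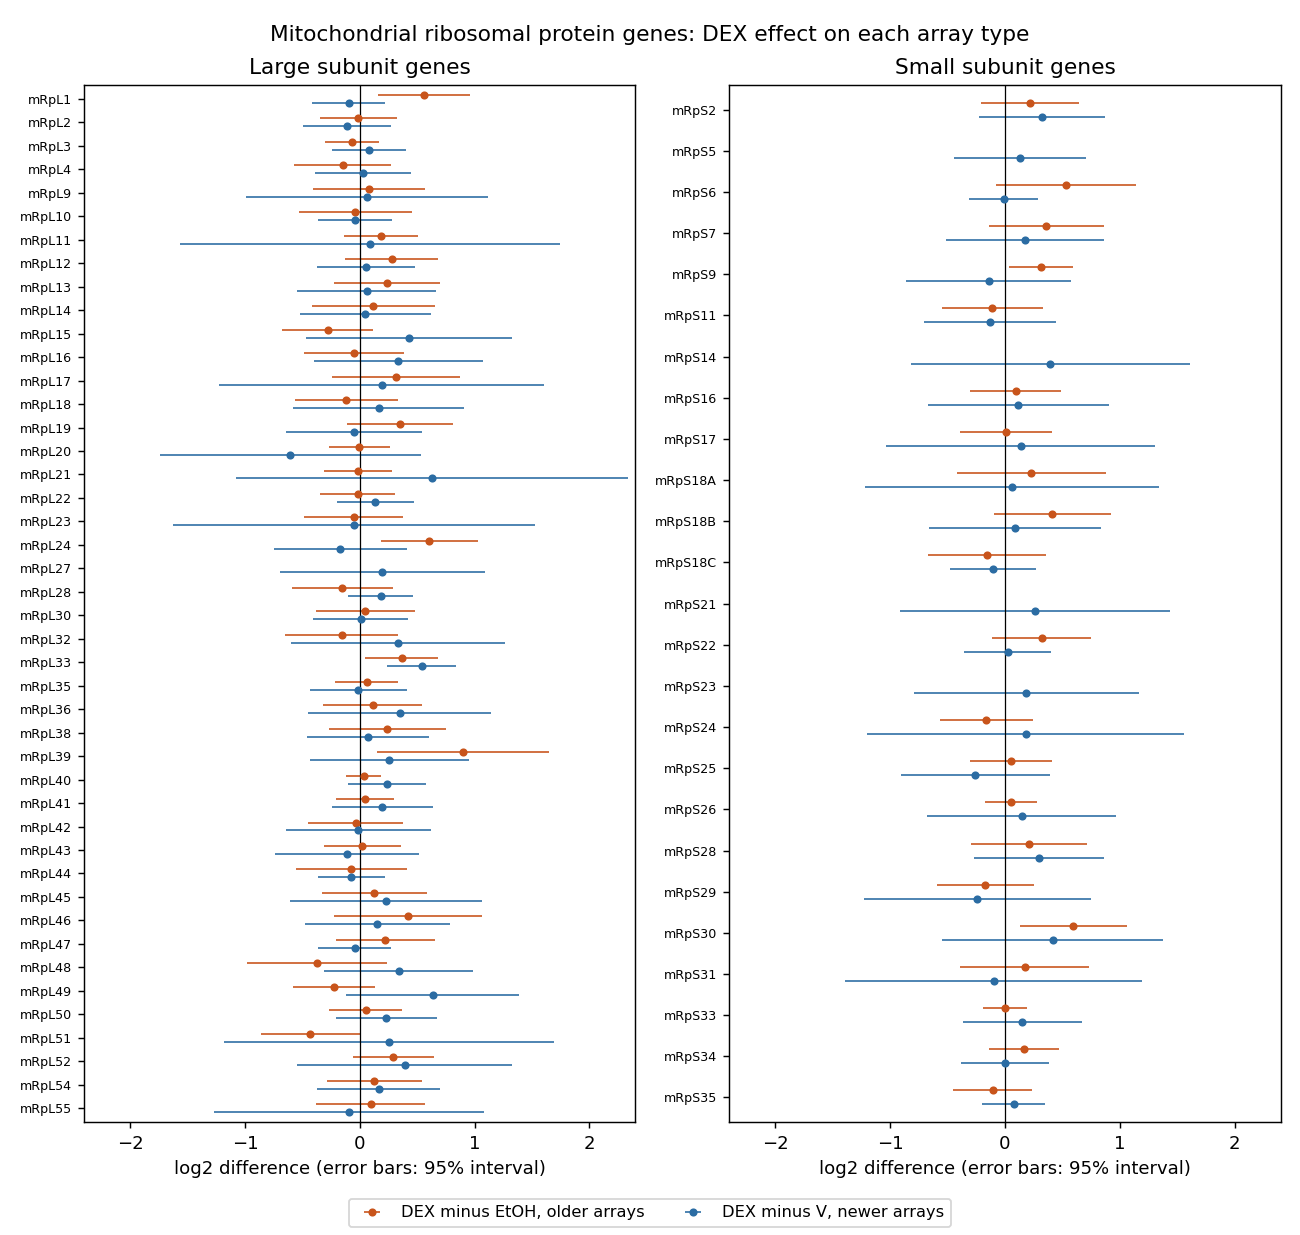
Log2 difference between DEX and control for each mitochondrial ribosomal protein gene, large subunit on the left and small subunit on the right. Points are differences between group means of 2 arrays each, orange for the older type (DEX minus EtOH) and blue for the newer (DEX minus V), and bars are unadjusted 95% intervals from limma. Most intervals cross 0, every point lies between -1 and 1, and the intervals of mRpL33 lie above 0 on both types.

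On the newer array type, too, no gene of the family passed. All 69 genes were above the minimum, with means from 6.11 (mRpL35) to 11.90 (mRpL23), and limma called 0 of them, against 0% of all 12436 probe sets. At an unadjusted p under 0.05 there was 1 of 69, against 3.53% of all probe sets. The differences lay between -0.61 and 0.63 with a median of 0.12, and 48 of 69 were positive, against a median of -0.0045 and 47.6% positive over all probe sets. Among probe sets with a mean of 6 to 12 the median was 0.054 and 59.2% were positive. The 95% interval lay between -1 and 1 for 44 of the 69 genes, with a median half-width of 0.63.

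The sign of this shift on the newer type depended on which V array was used. Without V replicate 2 the median difference was -0.086 and 23 of 69 genes were positive. Without V replicate 1 it was 0.31 and 60 of 69 were positive. With 2 V arrays, each such fit only sets DEX against the other V array, so these values cannot say which of them is unusual. Leaving out a DEX array gave 0.096 and 0.098. Both arrays labelled DEX lay above both V arrays for 13 of 69 genes, or 18.8%, and below them for 3, or 4.35%. Over all probe sets these shares were 13% and 23.9%, and over those with a mean of 6 to 12 they were 19.3% and 12.7%.

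mRpL33, for a short large subunit protein with a bacterial counterpart, had the smallest p of the family on this type. It stood at 8.69 and 8.66 on the arrays labelled DEX and at 8.13 and 8.13 on the V arrays. The difference was 0.54 ± 0.098 (SE, n = 2 each, limma adjusted p = 0.865), with a 95% interval from 0.24 to 0.84, and it was 0.54 without either V array. mRpL49, a large subunit gene without a bacterial counterpart, had the highest difference. It stood at 10.16 and 10.38 on the arrays labelled DEX and at 9.90 and 9.36 on the V arrays, or 0.63 ± 0.25 (limma adjusted p = 0.865), and 0.36 without V replicate 2.

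The next genes by p differed less. mRpL40 stood at 7.94 and 8.06 on the arrays labelled DEX and at 7.78 and 7.75 on the V arrays, a difference of 0.23 ± 0.11. mRpL28, the counterpart of a bacterial large subunit protein, stood at 10.41 and 10.47 on the arrays labelled DEX and at 10.23 and 10.28 on the V arrays, a difference of 0.18 ± 0.093. Both had a limma adjusted p of 0.865 and groups that did not overlap. The lowest difference, -0.61 ± 0.37, was that of mRpL20, whose bacterial counterpart acts early in assembly of the large subunit. It stood at 7.29 and 6.45 on the arrays labelled DEX and at 7.65 and 7.30 on the V arrays, so that most of it came from 1 DEX array.

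The spread that the family showed most clearly was between the 2 V arrays. V replicate 2 was lower than V replicate 1 for 62 of 69 genes, by a median of 0.37 on the log2 scale, and for 25 of 69, or 36.2%, by more than 0.5. Over all probe sets the median was 0.020, with 64.2% lower on V replicate 2 and 10.8% lower by more than 0.5. Among probe sets with a mean of 8 to 12 the median was 0.18, with 71.8% lower and 20.4% lower by more than 0.5. The median was 0.34 over large subunit genes and 0.52 over small subunit genes. It was 0.38 over genes with bacterial counterparts and 0.37 over those without, so the pattern ran across the family.

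The widest gap between the V arrays was in mRpL21, a gene with a bacterial counterpart, at 9.17 on replicate 1 and 7.79 on replicate 2. Next came mRpL11, whose bacterial counterpart lies where translation factors bind, with a gap of 1.34, and mRpL23, whose bacterial counterpart lines the peptide exit, with a gap of 1.21. Gaps over 1 were also seen in mRpS24, mRpL17, mRpS31 and mRpS18A. Only 7 genes were higher on V replicate 2, with mRpS28 the most, by 0.29. The arrays labelled DEX showed no such gap between replicates, with a median of -0.018 for replicate 1 minus replicate 2, and the older type's DEX and EtOH pairs had medians of 0.030 and -0.0027.

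Among related lists, the median of V replicate 1 minus V replicate 2 was 0.074 over 34 cytosolic ribosomal protein genes. It was 0.18 over 10 mitochondrial translation factors, 0.29 over 16 mitochondrial aminoacyl-tRNA synthetases and 0.25 over 11 mitochondrial DNA and RNA factors. Haemocyte markers had a median of -0.044. The upper quartile of intensity was 200.4 and 185.7 on the arrays labelled DEX, 199.6 on V replicate 1 and 179.6 on V replicate 2. The 3′ minus 5′ difference of the actin control was 1.71 and 1.76 on the arrays labelled DEX, 1.78 on V replicate 1 and 1.54 on V replicate 2. That of eIF-4a was 3.26 and 3.24 on the arrays labelled DEX, 3.31 on V replicate 1 and 3.32 on V replicate 2. GAPDH gave 4.59 and 4.24 on the arrays labelled DEX, 4.61 on V replicate 1 and 4.41 on V replicate 2. The part of these in the gap was not tested.

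**Figure D2:**
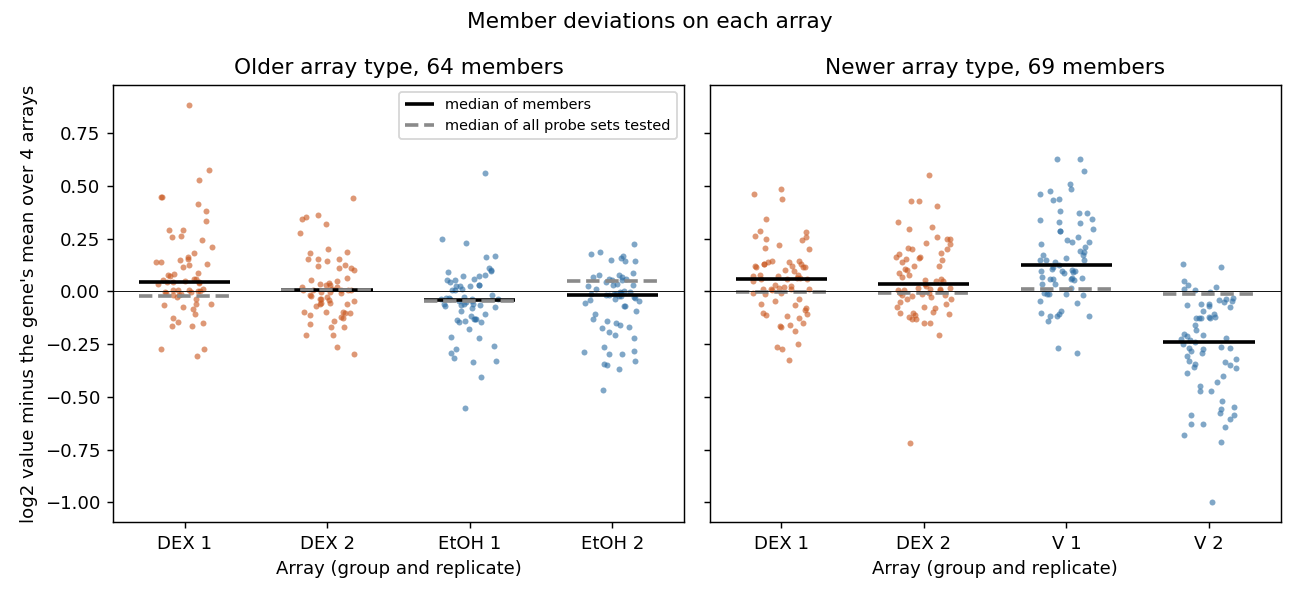
Log2 value of each mitochondrial ribosomal protein gene minus that gene's mean over the 4 arrays of its type, by array, with DEX arrays in orange and EtOH or V arrays in blue. Solid bars are medians of the family and dashed bars medians of all probe sets tested; V replicate 2 has a family median of -0.24 and V replicate 1 one of 0.13, whereas the other 6 arrays lie between -0.042 and 0.060.

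A single fit of both array types, which asks for a change common to them, passed no gene of the family either. This fit cannot find a response of opposite sign on the 2 types, and it missed the CLK targets as well: vri differed by 0.99, Pdp1 by 0.097, tim by 0.043 and cwo by 0.0074, with limma adjusted p between 0.883 and 1. Its counts therefore say little about a response to DEX, and they hold for the newer type's labels as given. limma called 0 of 64, against 0% of all 6755 genes tested, and at an unadjusted p under 0.05 there were 3 of 64, or 4.69%, against 4.28% of all genes. The differences lay between -0.31 and 0.58 with a median of 0.088, and 49 of 64 were positive, against 0.020 and 55.8% over all genes. The values over all genes were not split by level. Without V replicate 2 the median was 0.00090 and 32 of 64 were positive. The 95% interval lay between -1 and 1 for 63 of the 64 genes.

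With the labels as given, mRpL33 had the smallest p of the family here as well. On the older type it stood at 5.64 and 5.59 with DEX and at 5.12 and 5.39 with EtOH, so that the DEX arrays were above the controls on both types. The common difference was 0.45 ± 0.11 (SE, 4 arrays against 4), or 1.37-fold as deposited, with an unadjusted p of 0.00329 and a limma adjusted p of 0.874. It kept its sign and did not pass under any alternative that tested it, and lay between 0.39 and 0.52 on the log2 scale. At a minimum mean of 6 it was not tested, since the mean of mRpL33 on the older type was 5.43. With the newer type's direction turned, the interaction term gives the test, and there mRpL33 was at 0.17 ± 0.22 (unadjusted p = 0.465, limma adjusted p = 0.984), 26 in the order of p among the 64. That term is the newer effect minus the older, so 0.17 is not on the scale of the common difference. Its positive sign stands for a negative common difference once the newer type's direction is turned. mRpL33 is named here because an earlier analysis of the same arrays listed it among the genes with the smallest p, so its place in the family is not independent evidence.

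The next 3 genes were mRpS30, mRpL39 and mRpL52, all without bacterial counterparts. mRpS30 differed by 0.50 ± 0.17, and on the newer type it stood at 10.99 and 10.89 on the arrays labelled DEX and at 10.90 and 10.14 on the V arrays, where the groups overlapped. mRpL39 differed by 0.58 ± 0.23, with 9.47 and 9.71 on the arrays labelled DEX and 9.57 and 9.10 on the V arrays, again with overlap. mRpL52 differed by 0.34 ± 0.17. It stood at 5.90 and 5.60 with DEX and at 5.54 and 5.38 with EtOH on the older type, and at 7.74 and 8.46 on the arrays labelled DEX and 7.79 and 7.63 on the V arrays. All 3 had a limma adjusted p of 0.874.

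**Figure D3:**
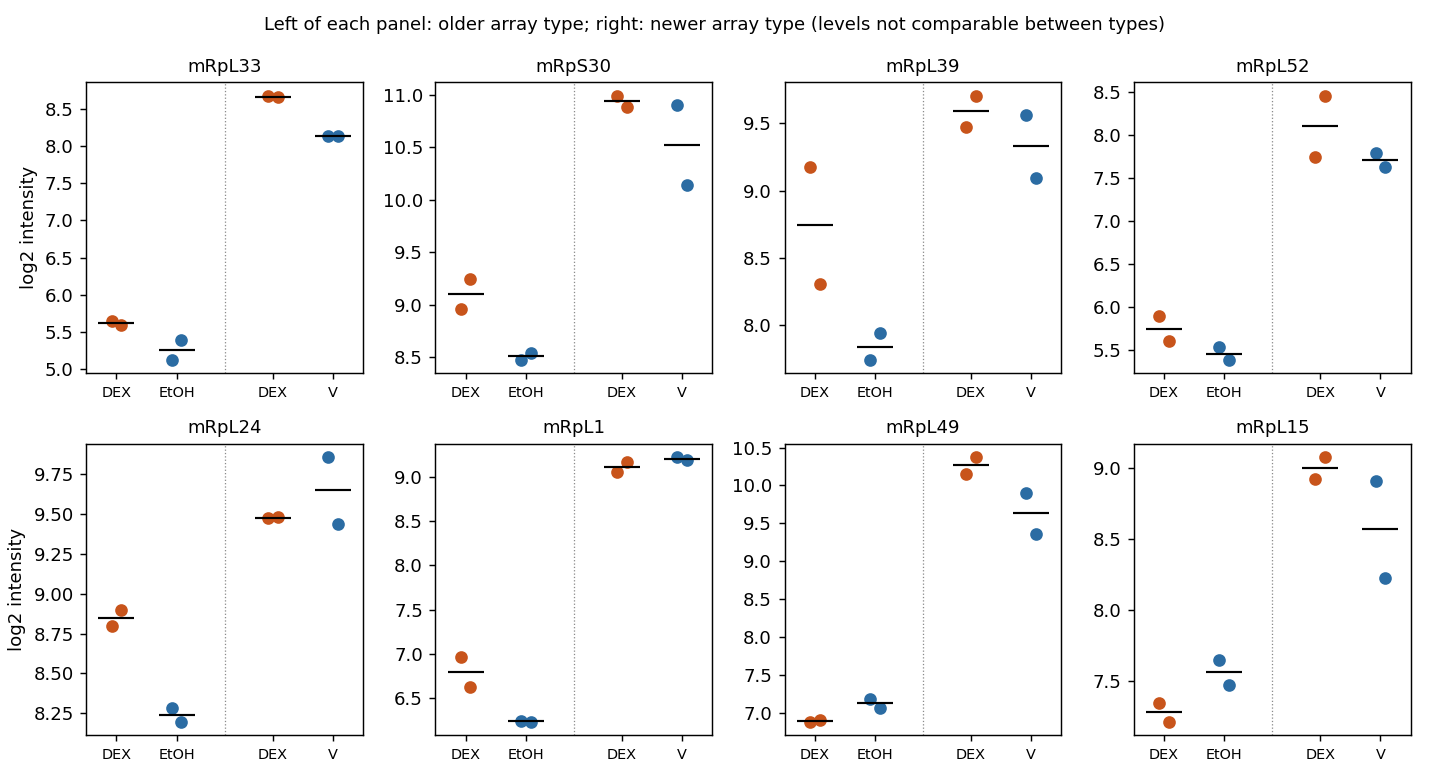
Log2 intensity of 8 genes on every array, with 2 arrays per group and the group mean as a black line; in each panel DEX and EtOH of the older type are on the left and DEX and V of the newer type on the right. In mRpL33 the DEX arrays are above the controls on both types, and in mRpL1, mRpL49 and mRpL15 the groups lie apart in opposite directions on the 2 types.

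With the labels as given, the DEX arrays were above the controls without overlap on both types for 3 of 64 genes, mRpL33, mRpL40 and mRpL41, a share of 4.69% against 3.08% of all genes. They were below on both for 0 of 64, against 2.47%. Neither share of all genes was split by level. mRpL40 and mRpL41, both without bacterial counterparts, differed by 0.034 and 0.045 with DEX on the older type, and by 0.23 and 0.20 in the arrays labelled DEX on the newer. On the older type mRpL40 stood at 4.39 and 4.43 with DEX and at 4.38 and 4.37 with EtOH, close to the minimum of 4. These separations are small against the differences of mRpL33. With the newer type's direction turned, these 3 genes would lie apart in opposite directions, and mRpL1, mRpL15, mRpL28, mRpL49 and mRpS35 would lie apart the same way on both types.

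The DEX effects on the 2 types did not follow each other across the family, nor across all genes. Of 64 genes, 29 were positive on both, 9 negative on both and 26 of opposite sign, or 45.3%, 14.1% and 40.6%. Over all 6755 genes these shares were 28.5%, 26.4% and 45.1%, and they were not split by level. On the single types, probe sets with a mean of 6 to 12 were positive more often than all probe sets, at 58.4% on the older and 59.2% on the newer. Pearson's r between the 2 effects was -0.054 and Spearman's rho -0.058 across the 64 genes, which share the same arrays, so both are descriptions only. Over all 6755 genes they were -0.192 and 0.038.

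**Figure D4:**
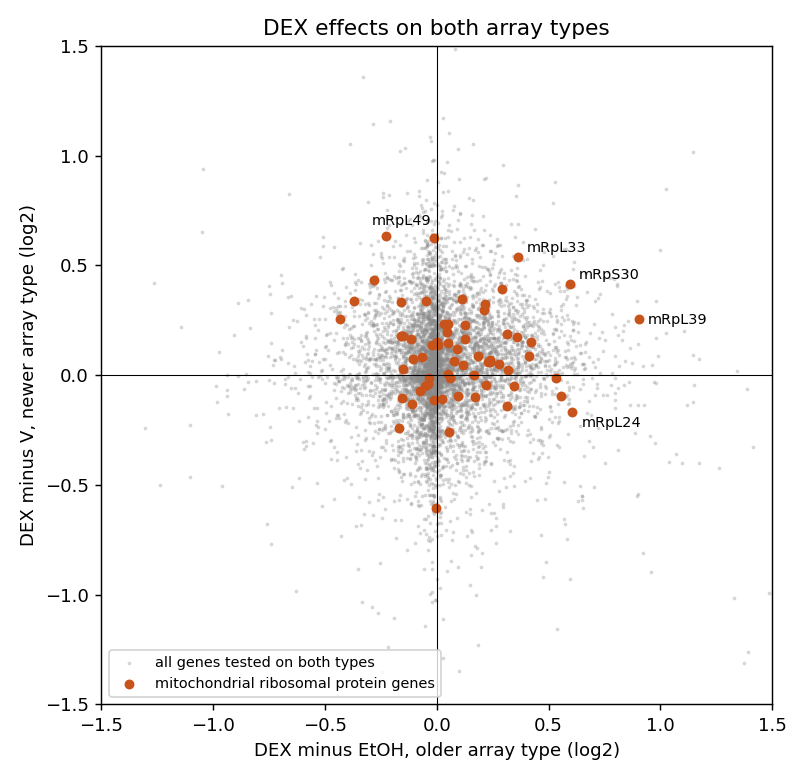
DEX effect on the older type (horizontal, DEX minus EtOH, log2) against that on the newer type (vertical, DEX minus V, log2), with mitochondrial ribosomal protein genes in orange and all genes tested on both types in grey. Of the grey points, 31 lie outside the axes, and all 64 orange points lie within 1 of 0 on both axes with no slope visible.

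The interaction term, which tests the newer effect minus the older, called 0 of 64 genes of the family, against 0.4% of all 6755 genes, where vri, cwo and Pdp1 were among those called. At an unadjusted p under 0.05 there were 3 of 64, against 5.33% of all genes. The median was -0.00044, with 32 genes positive and 32 negative. Without V replicate 2 it was -0.19.

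The 4 genes with the smallest p were mRpL24, mRpL49, mRpL1 and mRpL15. The difference between effects was -0.78 ± 0.25 for mRpL24 (SE, limma adjusted p = 0.726), which on the newer type stood at 9.47 and 9.48 on the arrays labelled DEX and at 9.86 and 9.44 on the V arrays. It was 0.86 ± 0.30 for mRpL49 (limma adjusted p = 0.775), at 6.88 and 6.91 with DEX and 7.18 and 7.07 with EtOH on the older type. It was -0.65 ± 0.24 for mRpL1 (limma adjusted p = 0.847), at 9.05 and 9.16 on the arrays labelled DEX and 9.22 and 9.18 on the V arrays.

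For mRpL15, the counterpart of a bacterial large subunit protein, the difference between effects was 0.71 ± 0.34 (limma adjusted p = 0.968). It stood at 7.34 and 7.21 with DEX and at 7.64 and 7.47 with EtOH on the older type. In the newer table it stood at 8.92 and 9.08 on the arrays labelled DEX and at 8.91 and 8.23 on the V arrays, so that without V replicate 2 its difference between effects was 0.37. The groups lay apart in opposite directions on the 2 types for 5 of 64 genes, mRpL1, mRpL15, mRpL28, mRpL49 and mRpS35, or 7.81% against 4.46% of all genes.

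Some genes encode proteins at known functional sites of the ribosome. They are named for these roles with their values in view, so that they describe single genes and not a group. mRpL2, mRpL3 and mRpL4, whose bacterial counterparts surround or reach toward the site of peptide bond formation, differed by -0.063, 0.0076 and -0.061 in the fit of both types. Those for the stalk that recruits translation factors, mRpL10, mRpL11 and mRpL12, differed by -0.040, 0.13 and 0.17. Those for proteins at the peptide exit, mRpL22 and mRpL23, differed by 0.058 and -0.053, while mRpL24, whose bacterial counterpart also lies near the exit, differed by 0.22 and mRpL1 of the tRNA exit stalk by 0.23. None of these 10 genes passed, with a limma adjusted p between 0.874 and 0.993. The values of mRpL24 and mRpL1 average effects of opposite sign, 0.61 and 0.56 on the older type and -0.17 and -0.096 on the newer. As labelled, mRpL3, mRpL4 and mRpL22 also differed in sign between the types, whereas mRpL2, mRpL10, mRpL11, mRpL12 and mRpL23 did not.

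In the small subunit, mRpS7 and mRpS9, whose bacterial counterparts bind the head of the subunit, and mRpS2 differed by 0.27, 0.087 and 0.27 in the same fit. mRpS9 stood at 5.75 and 5.74 with DEX and at 5.37 and 5.50 with EtOH on the older type. In the newer table it stood at 9.25 and 9.18 on the arrays labelled DEX and at 9.63 and 9.09 on the V arrays, so that the groups lay apart on the older type and overlapped on the newer. mRpS29, for a GTP-binding protein known in mammals as death-associated protein and found in mitochondrial ribosomes only, differed by -0.20 ± 0.17 (limma adjusted p = 0.874). It stood at 8.20 and 8.36 with DEX and at 8.47 and 8.43 with EtOH on the older type, and at 8.25 and 8.23 on the arrays labelled DEX and 8.87 and 8.09 on the V arrays. mRpS11, whose bacterial counterpart lies near the path of the message, differed by -0.12 ± 0.11.

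A few genes were read by 2 probe sets of a table, and these gave small differences on each. On the older type mRpL12, for the stalk protein that binds translation factors, stood at 8.42 and 8.45 with DEX and at 8.16 and 8.14 with EtOH on its brighter probe set, a difference of 0.28 ± 0.16. Its other probe set gave -0.080 ± 0.14. For mRpL11 the 2 probe sets gave 0.18 ± 0.13 and -0.053 ± 0.059. On the newer type mRpL47 gave -0.046 ± 0.10 and -0.0028 ± 0.35, and mRpS11 gave -0.13 ± 0.19 and -0.019 ± 0.11. The probe set of mRpS18B on the newer type ends in _s_at and can read more than 1 gene, so its value there is uncertain.

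The other genes of mitochondrial gene expression also had no call in any of the 4 fits. On the older and newer type, translation factors numbered 9 and 10 tested, aminoacyl-tRNA synthetases 16 and 16, DNA and RNA factors 11 and 11, and regulators of mitochondrial biogenesis 4 and 4. In the fit of both types the lowest p among translation factors was that of mIF2, the initiation factor, at 0.71 ± 0.22 (limma adjusted p = 0.874), with 0.53 against EtOH and 0.88 against V. mEFG1, an elongation factor gene, followed at 0.15 ± 0.13. Among the synthetases AspRS-m was at -0.45 ± 0.16 and PheRS-m at 0.32 ± 0.14, each with the same sign on both types.

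PolG1, for the mitochondrial DNA polymerase, was at 0.15 ± 0.12 in the fit of both types and mTerf3 at 0.22 ± 0.18. Among the regulators clu was at 0.29 ± 0.14 and ERR, a nuclear receptor gene, at -0.036 ± 0.035. None of these passed. The cytosolic ribosomal protein genes also had 0 calls. In the fit of both types 22 of 28 were positive with a median of 0.080, against 55.8% and 0.020 over all genes, not split by level. There RpS15 was at 0.18 ± 0.062 and RpL37-1 at 0.16 ± 0.059.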

How the data were processed

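The authors deposited 1 intensity per probe set and array in a table per array type. GCRMA, a method that corrects background by probe sequence, normalises by quantiles and summarises probes, made these deposited intensity values per the submitters' processing notes. Its version and the log base it was taken off are not given in the sources used here. The tables were normalised separately, so no level was set against the other table's. No columns were identical.

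Values were turned to log2 without a pseudocount. Control probe sets (44 and 183) were left out, and probe sets were tested at a mean log2 of at least 4, in each table for fits over both. limma 3.58.1 under R 4.3.3 was run on each table (lmFit and a two-sided eBayes test with a variance trend on intensity, Benjamini-Hochberg over all features, threshold 0.05). All adjusted p-values are limma's. Single-table fits have 2 residual degrees of freedom and lean on the variance shared across probe sets. The fits over both tables used 1 probe set per gene and table, with array type as a block, without and with an interaction term. The number of arrays limits the precision. Fits were tested on simulated data with planted changes of 2 and 4 on the log2 scale in either direction. These are larger than any difference in the family, so the simulation does not measure how well changes of the family's size are found.

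Symbols come from the platform annotation, updated through RefSeq genes of Release 6 plus ISO1 MT (12394 of 12444 and 13544 of 13647 single-symbol probe sets matched). No coordinates are printed, because no build is named for the tables. Named were the 4 members with the smallest p in each fit, the extremes on each type, mRpL33, members apart the same way on both types, and the leading genes of the other lists. The genes of known functional sites, those of opposite direction, and those widest apart between V arrays, were named after their values were seen. The members and lists were chosen with earlier results of these data known. Alternatives covered filters, a pseudocount, scaling, the variance prior, probe set choice, the replicate number as a block, the variance of all 8 arrays, and each array left out.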

Additional observations from a re-analysis of the deposited data

How the results depend on the processing

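No member of the family was called under any alternative except 1, leaving out DEX replicate 2 of the older type, so the count over arrays left out ranged from 0 to 4 on that type. At a minimum of 6, the older type lost 13 of its 64 members, which dropped out of the fits that use it. Among them were mRpL33, mRpL40, mRpL41 and mRpL52. The members named by their p, as extremes or as mRpL33, mRpL40 and mRpL41 kept their sign in the comparison that named them under every alternative that tested them. Over the whole family this did not hold: with some 1 array left out, 25 of 64 members changed sign on the older type, 44 of 69 on the newer, 30 of 64 in the fit of both and 35 of 64 in the difference between effects. The dimmer probe sets of mRpL11 and mRpL12 turned their sign to -0.053 and -0.080. The median member difference on the older type was 0.082 with median centring and 0.029 with quantile normalisation repeated, and ranged from 0.034 to 0.061 with an array left out. On the newer type that range was -0.086 to 0.31, and for the difference between effects -0.19 to 0.17. The replicate number as a block left the median at 0.058 on the older type and called 34 probe sets there, and 10 genes in the difference between effects, against 27 and 27. Same-numbered arrays deviated together at r = 0.264 in the older table and -0.0231 in the newer, so the numbers are not shown to pair samples. Over all probe sets of the older type, against 27 calls there were 73 with no filter, 13 at a minimum of 6, 61 with a pseudocount of 16, 0 with median centring, 4 with quantile normalisation repeated, 12 without the intensity trend, 14 with the variance of all 8 arrays, and 0 to 455 with an array left out (263 without DEX replicate 1, 455 without DEX replicate 2, 0 without either EtOH array). The newer type had 12 with the variance of all 8 arrays. The difference between effects had 16 with plain _at probe sets alone and 8 to 58 with an array left out (8 and 11 without EtOH replicates 1 and 2, 50 without DEX replicate 1 of the newer type, 58 without V replicate 1). A minimum of 4 over all 8 arrays, chosen after seeing the data, tested 8404 genes and called 0 members. The cause of these moves was not tested. With 2 arrays per group, the 95% interval reached 1 or -1 on the log2 scale for 5 of 64 members on the older type and 25 of 69 on the newer.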
